A study of Mus musculus with 12 samples.

Results

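The genes described here are Trp53, which encodes the transcription factor p53, and 9 of its well-known targets, Cdkn1a, Pmaip1, Mdm2, Ccng1, Bax, Bbc3, Trp53inp1, Sesn2 and Phlda3. They were chosen by name, with earlier results of these data known, and all 10 were found among the 26219 genes of the expression table. The libraries were made by SC3-seq, which sequences the 3′ ends of amplified mRNA, from 1 ng of RNA each. Values are in RPM, read numbers scaled to one total for every library. The deposited table covers 12 libraries, 2 cultures from each of 6 mouse lines.

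The 4 GSCLC lines (germline stem cell-like cells) were obtained from mouse pluripotent stem cells by way of testes reconstituted in culture. GSCLC_2 and GSCLC_3 came from testes held at 37°C for 2 weeks and at 34°C for 1 further week, which is condition 2. GSCLC_1 and GSCLC_4 came from testes held at 34°C for 3 weeks, which is condition 1. The 2 GSC lines (germline stem cells, the cultured form of spermatogonial stem cells), GSC_1 and GSC_2, came from separate testes at postnatal day 7. All 6 lines share the C57BL/6 x 129/SvJcl background and the AcrAct_EGFP reporter, and all were kept in StemPro-34 medium with 1% serum, GDNF, bFGF, LIF and EGF. Each line is 1 derivation, and being a GSCLC line coincides with coming from a reconstituted testis, so the kind of line and its source cannot be told apart. The labels call the replicates biological replicates of the culture. The germ cell identity in the labels was matched by the expression of all 14 germ cell markers listed, whose summed level was 3834 to 4605 RPM in GSCLC libraries and 3892 to 4488 RPM in GSC libraries.

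The p53 protein is kept low in unstressed cells by Mdm2, a ubiquitin ligase that marks it for breakdown, and Mdm2 is itself a p53 target, which closes a feedback loop. After DNA damage or other stress, p53 accumulates mainly through protein stability and binds response elements near its targets, some of which halt the cell cycle while others start death by way of the BCL2 family. In the testis, p53 is known for its part in germ cell death after radiation. The level of Trp53 mRNA is therefore not a measure of p53 activity.

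The p53 response element is a pair of adjacent p53 consensus decamers, and it was looked for in the promoter windows that RefSeq gives for 8 of the 10 genes on build GRCm38.p6, from 250 bases before to 50 bases after each transcript start. Both strands were read, and at most 2 mismatches to the 20-base element were allowed. The C and the G of each decamer's core were kept, while the A or T letters between them could mismatch. The element was present in 107 of 32851 mouse windows (0.326%). Among the 11 windows of the 8 genes, 1 of Cdkn1a and 1 of Ccng1 held it, each with 1 mismatch. That of Ccng1 lies between the C and the G of the core of its first decamer. The Cdkn1a stretch lies at chr17:29090903-29090972 on the plus strand, and its element begins 51 bases before the transcript start of that window. The Ccng1 stretch lies at chr11:40755437-40755506 on the minus strand, and its element begins 195 bases before the transcript start of that window. Both are shown 5′ to 3′ on the strand of the gene because they hold the kind of sequence that p53 binds, with the element in capitals.
Cdkn1a: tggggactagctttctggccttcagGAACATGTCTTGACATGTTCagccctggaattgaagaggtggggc
Ccng1: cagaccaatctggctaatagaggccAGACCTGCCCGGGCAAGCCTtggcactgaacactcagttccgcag
A match is a description of these letters, and a window without one says nothing on whether p53 acts on that gene from elsewhere.

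The RPM steps of the table imply 3031705 to 4644183 counted reads per library, so a level of 3 reads corresponds to 0.646 to 0.99 RPM. One library stood apart. Among 6361 genes with at least 20 RPM in 11 of the libraries, replicate 1 of GSCLC_4 had 32 genes more than 2-fold below their next lowest library, of which 4 were more than 4-fold below it. The other 11 libraries had 0 to 3 genes past 2-fold and 0 past 4-fold. The gene with the widest such gap of all 6361 was Trp53. The tests of Trp53, and the differences of Cdkn1a and Pmaip1 between GSCLC and GSC lines, are given below with and without this library. Most other results, and the shares of all tested genes, are given with all 12 libraries.

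Trp53 lies on the plus strand of chromosome 11 at bases 69580359 to 69591873 of GRCm38, the build of the table, in the GENCODE M21 annotation. In the condition 2 lines its level was 88.0 and 92.6 RPM in the replicates of GSCLC_2 and 104.3 and 68.2 RPM in those of GSCLC_3. In the condition 1 lines it was 96.7 and 87.5 RPM in GSCLC_1, and 1.00 and 59.7 RPM in GSCLC_4. The GSC lines had 73.7 and 67.4 RPM in GSC_1 and 73.1 and 41.6 RPM in GSC_2. Thus 5 of the 8 GSCLC libraries lay above every GSC library, 1 lay far below them, and the groups overlapped.

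The 1.00 RPM of GSCLC_4 replicate 1 corresponds to 4 reads, with an exact 95% Poisson interval of 0.273 to 2.565 RPM that covers counting error only. Replicate 2 of the same line had 181 reads of Trp53. The level in replicate 1 was 41.5-fold below the next lowest library, GSC_2 replicate 2, and 59.6-fold below its own line's replicate 2. After Trp53, the widest single-library gaps in GSCLC_4 replicate 1 were those of Gm19592, at 4.51 RPM against 89.0 RPM in the next lowest library, and of Pdia4, which encodes a disulfide isomerase of the endoplasmic reticulum, at 8.77 against 47.5 RPM. Rpa1, which encodes a subunit of the single-stranded DNA binding protein RPA, followed at 4.01 against 20.5 RPM. These 3 genes were named because of their rank.

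**Figure D1:**
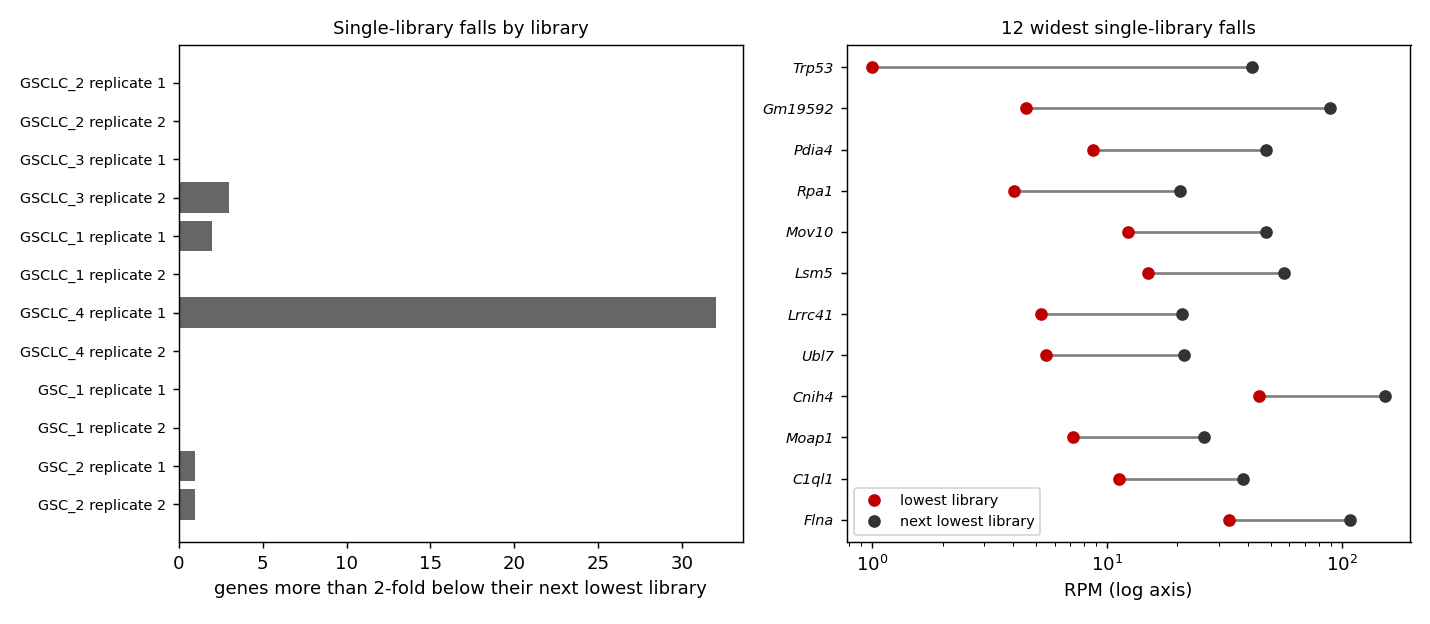
Left: number of genes more than 2-fold below their next lowest library, per library, among 6361 genes with at least 20 RPM in 11 libraries. Right: level in the lowest library and in the next lowest one, in RPM on a log axis, for the 12 genes with the widest gaps. GSCLC_4 replicate 1 has 32 such genes, and Trp53, at 1.00 against 41.6 RPM, has the widest gap.

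The genes beside Trp53 on the chromosome were at like levels in both replicates of GSCLC_4. Over the 22 genes within 500 kb that averaged at least 20 RPM, the difference in log2(RPM + 1) of replicate 1 minus replicate 2 was -0.63 to 0.31 with a median of -0.24, against -4.92 for Trp53. Wrap53, whose first exons lie beside those of Trp53 on the other strand and which encodes a telomerase cofactor, had 53.9 RPM in replicate 1 and 43.2 RPM in replicate 2. The last 300 bases of Trp53, which SC3-seq reads, lie under no exon of another gene in the annotation and share no run of 40 bases with another gene's transcripts. The cause of the low Trp53 value was not tested.

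**Figure D2:**
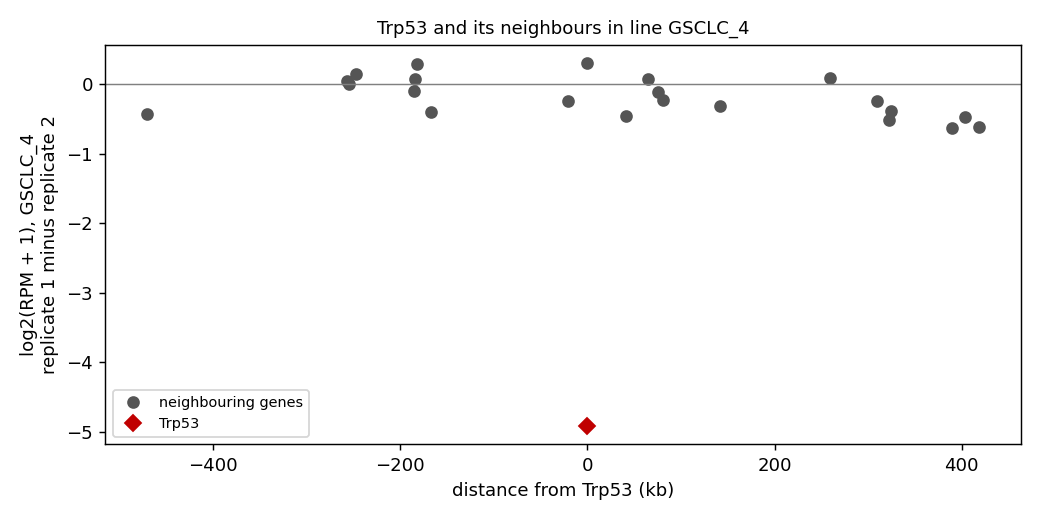
Difference in log2(RPM + 1) between replicate 1 and replicate 2 of GSCLC_4 for Trp53 (red) and its 22 neighbours (gray), against distance from Trp53 in kb. The neighbours lie between -0.63 and 0.31 and Trp53 lies at -4.92.

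The p53 targets in GSCLC_4 replicate 1 stayed within the range of other libraries, apart from those of Mdm2 and Bax. Mdm2 had 220.4 RPM there, the highest of the 12 libraries, next to 216.4 RPM in GSC_1 replicate 1 and 186.4 RPM in its own line's replicate 2. Bax had 37.6 RPM there, the lowest of the 12 libraries, against 60.03 RPM in replicate 2. The other 7 targets, Cdkn1a among them at 39.6 and 45.8 RPM, differed by -0.45 to 0.64 in log2(RPM + 1) between these replicates. Replicates of the other 5 lines differed by -0.69 to 1.34 over the 9 targets. Between the GSCLC_4 replicates the 9 targets thus differed by -0.66 for Bax to 0.64 for Bbc3, against -4.92 for Trp53. A target as low as Bbc3, at 4.62 RPM in replicate 2, could not have fallen as far as Trp53 did. Whether the low Trp53 value had an effect on the targets was not tested.

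GSCLC lines were compared with GSC lines by limma on the line means of log2(RPM + 1), as 4 lines against 2, over the 11788 genes that reached 5 RPM in 2 or more libraries. All 10 genes passed that filter. Tests were two-sided, with Benjamini-Hochberg adjustment over all tested genes. Of the 10 genes, 2 were lower in GSCLC lines, Pmaip1 and Cdkn1a, and 0 were higher. Of all tested genes 3.02% passed the threshold of 0.05, 1.81% as lower and 1.21% as higher in GSCLC lines. The log2 differences of the 10 genes had a median of -0.19, against -0.01 for all tested genes, and 9 of the 10 were below 0, against 50.8% of all tested genes. Without GSCLC_4 replicate 1, 8 of the 10 were below 0, since Trp53 turned above it, and their median was -0.16. The line means of 3 of the 10 genes (Cdkn1a, Pmaip1 and Bbc3) were lower in each GSCLC line than in either GSC line, a pattern that 14.9% of tested genes showed in that direction, 13.8% in the other and 28.6% in either. For Bbc3 the separation was slight, with line means of 6.19 RPM in GSCLC_4 and 6.37 RPM in GSC_2. At the level of single libraries the groups overlapped for all 10 genes. Since the genes were chosen with earlier results of these data known, the shares of all tested genes serve as description only.

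**Figure D3:**
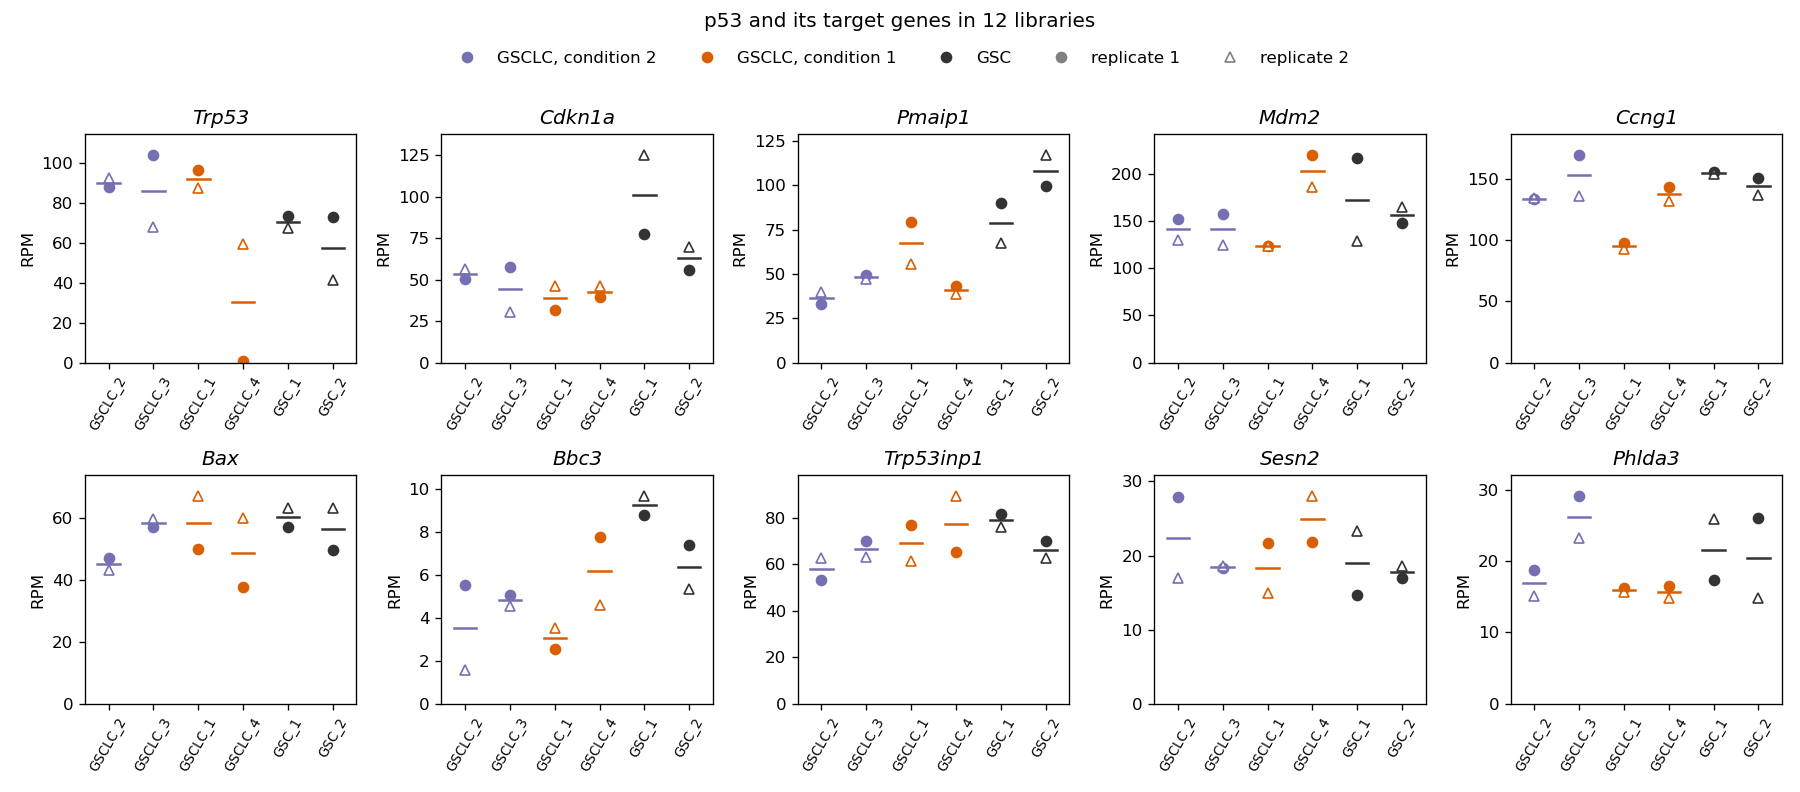
Level in RPM of p53 and its targets in 12 libraries, 1 panel per gene, with GSCLC lines of condition 2 and condition 1 left of the GSC lines. Circles are replicate 1, triangles replicate 2, and bars the mean of each line. Trp53 is at 1.00 RPM in GSCLC_4 replicate 1, and the line means of Cdkn1a, Pmaip1 and Bbc3 are lower in the 4 GSCLC lines than in both GSC lines. For Bbc3 the gap is slight, at 6.19 RPM in GSCLC_4 and 6.37 RPM in GSC_2.

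Cdkn1a encodes p21, the inhibitor of cyclin-dependent kinases by which p53 halts the cell cycle, and lies on chromosome 17 at 29090976 to 29100727. Its level was 50.1 and 56.6 RPM in GSCLC_2, 57.4 and 30.7 RPM in GSCLC_3, 31.7 and 46.1 RPM in GSCLC_1, and 39.6 and 45.8 RPM in GSCLC_4. The GSC lines had 77.3 and 125.3 RPM in GSC_1 and 55.9 and 69.7 RPM in GSC_2. Of the GSCLC libraries 6 of 8 lay below every GSC library. The other 2 lay close to the lowest GSC library, GSC_2 replicate 1. Line means averaged 44.8 ± 6.15 RPM in GSCLC lines (SD, n = 4) and 82.0 ± 27.2 RPM in GSC lines (SD, n = 2). The difference in log2(RPM + 1) was -0.83 ± 0.20 (SE, limma adjusted p = 0.0496).

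Pmaip1 encodes NOXA, a BH3-only protein that promotes death by binding anti-apoptotic BCL2 relatives, and lies on chromosome 18 at 66458533 to 66465565. Its level was 32.8 and 39.7 RPM in GSCLC_2, 49.5 and 47.4 RPM in GSCLC_3, 79.3 and 55.8 RPM in GSCLC_1, and 43.3 and 38.9 RPM in GSCLC_4. The GSC lines had 90.0 and 67.4 RPM in GSC_1 and 99.4 and 117.4 RPM in GSC_2. Of the GSCLC libraries 7 of 8 lay below every GSC library, and GSCLC_1 replicate 1 lay within the GSC range. Line means averaged 48.4 ± 13.8 RPM in GSCLC lines (SD, n = 4) and 93.5 ± 21.0 RPM in GSC lines (SD, n = 2). The difference in log2(RPM + 1) was -0.96 ± 0.23 (SE, limma adjusted p = 0.0476).

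Both calls lie close to the threshold. With GSCLC_4 replicate 1 left out, neither gene passed (Cdkn1a -0.80 ± 0.20, adjusted p = 0.0611, and Pmaip1 -0.98 ± 0.23, adjusted p = 0.0526, both limma). Leaving out any single library ended the Cdkn1a call in 10 of 12 cases, all but GSC_2 replicate 1 and GSCLC_2 replicate 2, with differences of -1.001 to -0.66 over the 12. It ended the Pmaip1 call in 8 of 12, all but GSC_1 replicate 2, GSC_2 replicate 1, GSCLC_1 replicate 1 and GSCLC_2 replicate 1, with differences of -1.06 to -0.85. Leaving out whole lines moved Cdkn1a to -0.50 without GSC_1 and -1.15 without GSC_2, and Pmaip1 to -1.19 without GSC_1 and -0.72 without GSC_2. Without GSC_1 the difference of Cdkn1a was therefore more than 1.5-fold smaller. Leaving out a GSC line leaves 1 in that group, which is then assumed to vary like the GSCLC lines, and all genes called dropped to 41 without GSC_1 and 13 without GSC_2, so a call lost there does not show a weaker difference.

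In bulk libraries, fewer cells of a type and less RNA per cell cannot be told apart. Markers of other cell types also differed, not all in the same direction, and which cells their reads came from was not tested. The medians of the summed markers were 577.2 RPM in GSCLC and 822.2 RPM in GSC libraries for fibroblasts, 16.6 RPM in GSCLC and 64.7 RPM in GSC libraries for Leydig and peritubular cells, 34.7 RPM in GSCLC and 62.2 RPM in GSC libraries for Sertoli cells, and 13.1 RPM in GSCLC and 29.0 RPM in GSC libraries for macrophages and endothelium. The 12 fibroblast markers summed to 459.8 to 752.7 RPM in GSCLC libraries and 535.7 to 1125 RPM in GSC libraries, with none of them at 0 throughout a group. Of 11 tested fibroblast markers 10 had log2 differences below 0, and 2 were called lower, Col5a1 and Sparc, while Twist1 was called higher, at 71.3 RPM in GSCLC lines and 38.5 RPM in GSC lines (limma adjusted p = 0.0124). The 7 Leydig and peritubular markers summed to 13.04 to 51.5 RPM in GSCLC libraries, with Hsd3b1 and Cyp17a1 at 0 in all of them, and to 33.4 to 134.4 RPM in GSC libraries, with Cyp17a1 at 0 in all. The 4 tested ones had log2 differences below 0, and 2 were called lower. These were Cyp11a1, at 0.13 against 25.4 RPM in GSC lines, and Hsd3b1, at 0 against 19.4 RPM. Insl3 and Myh11, too low to test, averaged higher in GSCLC lines, Insl3 at 3.27 against 1.38 RPM. The 8 Sertoli markers summed to 18.1 to 116.5 RPM in GSCLC libraries, with Amh at 0, and to 34.7 to 139.1 RPM in GSC libraries, with Amh and Fshr at 0. The Sertoli sum was lower through Clu, at 14.2 RPM in GSCLC lines and 62.7 RPM in GSC lines (limma adjusted p = 0.0131). The other 2 tested Sertoli markers lay above 0 in log2 difference without passing, Wt1 at 12.4 RPM in GSCLC lines and 3.25 RPM in GSC lines and Rhox5 at 19.03 RPM in GSCLC lines and 2.201 RPM in GSC lines. Rhox5 was high through GSCLC_4, with line means of 68.8 RPM there and 3.13, 2.06 and 2.08 RPM in GSCLC_1, GSCLC_2 and GSCLC_3. Its line means were 1.135 RPM in GSC_1 and 3.267 RPM in GSC_2. The 8 macrophage and endothelium markers summed to 8.90 to 23.46 RPM in GSCLC libraries, with Tyrobp at 0, and to 23.47 to 36.7 RPM in GSC libraries. The 4 tested ones had log2 differences below 0, and only Fcer1g was called lower, at 0.10 RPM in GSCLC lines and 11.3 RPM in GSC lines. Ptprc and Cdh5, too low to test, averaged higher in GSCLC lines, Ptprc at 2.48 against 1.525 RPM. Among the GSC libraries, the one with the most Cdkn1a, GSC_1 replicate 2 at 125.3 RPM, had the lowest fibroblast sum, 535.7 RPM, while the 2 GSC_2 libraries with the most Pmaip1 had the highest sums, 1039 and 1125 RPM. The part of these cells in the Cdkn1a and Pmaip1 results was not tested.

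For Trp53 itself, line means averaged 74.8 ± 29.7 RPM in GSCLC lines (SD, n = 4) and 63.9 ± 9.32 RPM in GSC lines (SD, n = 2), with a log2 difference of -0.25 ± 0.68 (SE, limma adjusted p = 0.890). The mean in RPM and the difference in log2 values have opposite signs here. Without GSCLC_4 replicate 1 the GSCLC mean was 82.1 ± 15.1 RPM, and the log2 difference turned to 0.36 ± 0.19 (SE, limma adjusted p = 0.389). Without the whole line GSCLC_4 it was 0.50 ± 0.15 (SE, limma adjusted p = 0.0963). A difference of Trp53 between the kinds of line was thus not detected in any of these fits, and its sign rested on 1 library.

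**Figure D4:**
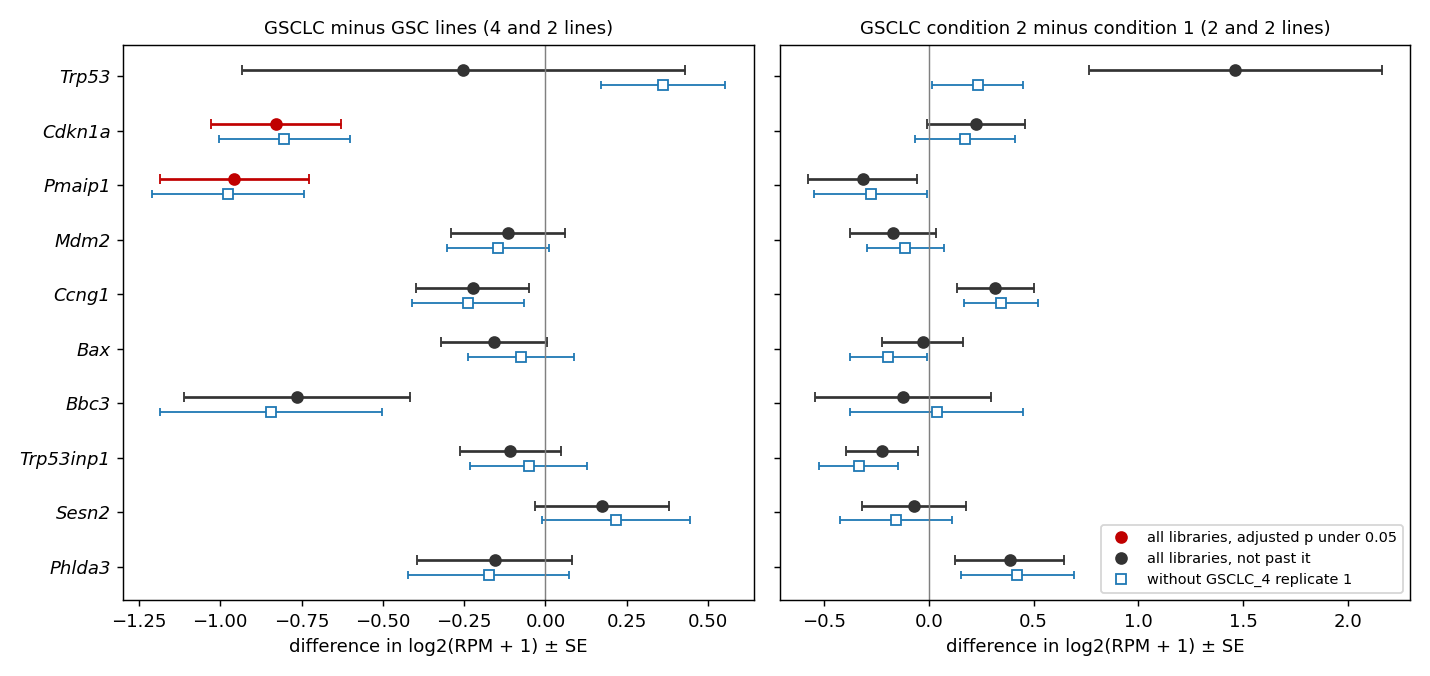
Difference in log2(RPM + 1) ± SE for each gene, GSCLC minus GSC lines on the left and GSCLC condition 2 minus condition 1 lines on the right. Circles are fits with all 12 libraries, in red where the limma adjusted p is under 0.05, and open squares are fits without GSCLC_4 replicate 1, where Trp53 lies at 0.36 and 0.23 and no gene is past the threshold.

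Among the regulators of p53 on this list, Mdm2 lies on the minus strand of chromosome 10 at 117688875 to 117710758. Its level was 152.7 and 129.9 RPM in GSCLC_2, 157.5 and 124.8 RPM in GSCLC_3, 123.8 and 123.9 RPM in GSCLC_1, and 220.4 and 186.4 RPM in GSCLC_4, against 216.4 and 128.5 RPM in GSC_1 and 148.4 and 165.3 RPM in GSC_2. GSCLC_4 had the highest line mean of the 4 GSCLC lines, at 203.4 RPM, and the GSC libraries spanned nearly the whole range. The log2 difference of GSCLC minus GSC lines was -0.11 ± 0.18 (SE, limma adjusted p = 0.787). Trp53inp1, whose nuclear protein promotes p53 phosphorylation, lies on chromosome 4 at 11156431 to 11174379. It ranged over 53.2 to 89.4 RPM in GSCLC libraries, with a median of 64.2, and over 62.5 to 81.8 RPM in GSC libraries, and its log2 difference was -0.11 ± 0.16 (SE, limma adjusted p = 0.775).

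Among the targets that act in the cell cycle, Ccng1 encodes cyclin G1, which recruits a phosphatase to Mdm2, and lies on the minus strand of chromosome 11 at 40748552 to 40755311. It had 133.6 and 134.6 RPM in GSCLC_2, 170.2 and 136.4 RPM in GSCLC_3, 97.6 and 92.9 RPM in GSCLC_1, and 143.3 and 132.3 RPM in GSCLC_4, against 156.1 and 154.6 RPM in GSC_1 and 151.4 and 137.0 RPM in GSC_2. Both GSCLC_1 libraries lay below all other 10 libraries, and 4 of the 6 libraries of the other GSCLC lines also lay below every GSC library, so that 6 of 8 GSCLC libraries did. GSCLC_3 replicate 1 and GSCLC_4 replicate 1 lay above the lowest GSC library. The log2 difference of GSCLC minus GSC lines was -0.22 ± 0.17 (SE, limma adjusted p = 0.556).

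Among the death genes, Bbc3 encodes PUMA, a BH3-only activator of apoptosis, and lies on chromosome 7 at 16308393 to 16318205. It had 5.52 and 1.57 RPM in GSCLC_2, 5.09 and 4.58 RPM in GSCLC_3, 2.57 and 3.55 RPM in GSCLC_1, and 7.77 and 4.62 RPM in GSCLC_4, against 8.80 and 9.69 RPM in GSC_1 and 7.38 and 5.36 RPM in GSC_2. Of the GSCLC libraries 6 of 8 lay below every GSC library, at levels worth few reads each. Its log2 difference, -0.76 ± 0.35, did not pass the test (SE, limma adjusted p = 0.292). Bax, which encodes the pore-forming effector of mitochondrial apoptosis, lies on the minus strand of chromosome 7 at 45461697 to 45466898. It ranged over 37.6 to 67.1 RPM in GSCLC libraries, with a median of 53.5, and over 49.7 to 63.3 RPM in GSC libraries, and its log2 difference was -0.16 ± 0.16 (SE, limma adjusted p = 0.673). The last 300 bases of Bax share runs of 40 bases with the annotated gene Gm45808, so the Bax level is uncertain. Phlda3, which encodes an inhibitor of the survival kinase Akt, lies on chromosome 1 at 135766119 to 135769136. It ranged over 14.8 to 29.1 RPM in GSCLC libraries, with a median of 16.4, and over 14.8 to 26.1 RPM in GSC libraries, and its log2 difference was -0.16 ± 0.24 (SE, limma adjusted p = 0.787).

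Sesn2, whose protein restrains the growth kinase complex mTORC1 in stressed or starved cells, lies on the minus strand of chromosome 4 at 132492032 to 132510501. It ranged over 14.9 to 28.0 RPM in GSCLC libraries, with a median of 20.1, and over 14.7 to 23.3 RPM in GSC libraries. Its log2 difference of 0.17 ± 0.21 was the single one above 0 with all libraries and did not pass the test (SE, limma adjusted p = 0.723).

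The 2 ways of keeping the reconstituted testes, condition 2 and condition 1, were compared as 2 lines against 2, with the spread estimated from these and the GSC lines together. None of the 10 genes passed, where 0 of all tested genes (0%) did, with 552 of 11788 at an unadjusted p under 0.05 and a smallest adjusted p of 0.933 (limma). The widest log2 difference among the 10 genes, condition 2 minus condition 1, was that of Trp53, 1.46 ± 0.70 (SE, limma adjusted p = 0.933), which was 0.23 ± 0.22 without GSCLC_4 replicate 1 (SE, limma adjusted p = 0.909). Trp53 was 88.0, 92.6, 104.3 and 68.2 RPM in condition 2 libraries, against 96.7, 87.5, 1.00 and 59.7 RPM in condition 1 libraries. The other 9 genes had log2 differences of -0.32 for Pmaip1 to 0.39 for Phlda3. Those of Bax and Sesn2, -0.03 and -0.07, turned above 0 under quantile or median-ratio rescaling. Phlda3 was highest in condition 2 through 1 line, at 29.1 and 23.2 RPM in GSCLC_3 and 18.8 and 15.1 RPM in GSCLC_2, against 14.8 to 16.5 RPM in the condition 1 libraries.

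Differences among the 4 GSCLC lines were tested with limma's moderated F-test on single libraries, whose p-values take the difference between cultures of the same line as the error and cannot be carried over to further lines. Of the 10 genes 3 passed, Ccng1, Trp53 and Pmaip1, where 9.14% of all tested genes did. Ccng1 was set apart by GSCLC_1, with a line mean of 95.2 RPM against 134.1 to 153.3 RPM in the other lines (limma adjusted p = 0.0243). It no longer passed without GSCLC_1 replicate 1, GSCLC_1 replicate 2 or GSCLC_3 replicate 1, at limma adjusted p-values of 0.108, 0.155 and 0.0555. Pmaip1 was highest in the same line, with a mean of 67.6 RPM in GSCLC_1 against 36.2 to 48.5 RPM in the other lines (limma adjusted p = 0.0368). GSCLC_1 thus had the lowest Ccng1 and the highest Pmaip1 of the 4 GSCLC lines.

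The Pmaip1 call among the lines ended without GSCLC_1 replicate 1 (limma adjusted p = 0.259), without GSCLC_2 replicate 1 (0.115), and, at 0.0518 to 0.0556, without GSCLC_2 replicate 2, either replicate of GSCLC_3 or either replicate of GSC_2. The Trp53 call (limma adjusted p = 0.0329) rested on GSCLC_4 replicate 1, without which its adjusted p was 0.368. It also passed the threshold by little, with 8 other libraries whose removal gave 0.0536 to 0.0626. Mdm2, highest in GSCLC_4, had a limma adjusted p of 0.0785 among the lines, and 0.0268 and 0.0263 without replicate 1 or replicate 2 of GSC_1.

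The genes whose levels over the 12 libraries were most like that of Trp53, by Pearson's r of log2(RPM + 1) among 7388 genes averaging at least 20 RPM, were Flna (0.975), LOC100861772 (0.966), Lrrc41 (0.964), Mrpl44 (0.952) and Rpa1 (0.951). Flna, Lrrc41 and Rpa1 are among the 12 genes with the widest single-library gaps in GSCLC_4 replicate 1. Over the 11 libraries without it, the most similar genes were Mrto4 (0.913), Elovl6 (0.859), Mrpl3 (0.850), Exosc4 (0.846) and Cnpy2 (0.840), none of which was in the first list. For Cdkn1a they included Nucb1 (0.971), Arid3a (0.883), AI413582 (0.876) and Ifi30 (0.868) over 12 libraries, and Nucb1 was first with 0.981 over 11. These values describe the libraries, whose points share lines and depth. The repeat without that library was added after its Trp53 value was seen.

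Around the 10 genes, 79 further genes of the pathway were listed by role, and 66 of them were tested. In GSCLC against GSC lines 1 of the 66 was higher and 1 lower, with a median log2 difference of -0.04, where 3.02% of all tested genes passed in either direction. Of 42 other p53 targets 36 were tested, and 0 were higher and 1 lower. That one was Fuca1, which encodes a lysosomal fucosidase, with line means of 32.7 RPM in GSCLC_2, 36.1 RPM in GSCLC_3, 29.0 RPM in GSCLC_1 and 32.6 RPM in GSCLC_4, against 66.2 RPM in GSC_1 and 65.9 RPM in GSC_2. Its libraries did not overlap, at 22.8 to 38.2 RPM in GSCLC lines and 50.7 to 81.1 RPM in GSC lines. Among the 66 genes, the same held for Rchy1, Gadd45a, Mcl1, Bik and Phgdh, which did not pass the test. Line means, a looser measure, did not overlap in 28.6% of all tested genes. The share of all tested genes without overlap of single libraries was not counted. Whether this pattern is more or less frequent among the 66 genes is therefore not known. The log2 difference of Fuca1 was -0.99 ± 0.16 (SE, limma adjusted p = 0.00873), and the call held without each of the 12 libraries in turn. With GSC_2 or GSC_1 as the lone GSC line the difference was nearly the same, -0.97 without GSC_1 and -1.01 without GSC_2, at limma adjusted p-values of 0.140 and 0.143.

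Among the p53 regulators and relatives 13 of 15 were tested and 0 passed in either direction. Mdm4, the partner of Mdm2 that masks p53, averaged 94.8 ± 15.3 RPM in GSCLC lines and 90.3 ± 4.19 RPM in GSC lines (SD, n = 4 and 2), a log2 difference of 0.08. Cdkn2a, which encodes the Mdm2 antagonist ARF and the kinase inhibitor p16, averaged 5.83 ± 2.01 RPM in GSCLC lines and 4.35 ± 0.50 RPM in GSC lines, a log2 difference of 0.28. The p53 relatives Trp63 and Trp73 did not reach the filter, with at most 0.33 and 0.54 RPM in GSCLC libraries and 0.49 and 0.43 RPM in GSC libraries, at or below the level of 3 reads.

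Among the other targets, 10 of 13 genes of arrest and signalling were tested with 0 higher and 0 lower and a median log2 difference of -0.42. Those of death had 9 of 11 tested, 0 higher and 0 lower and a median of 0.03. Those of DNA repair had 7 of 7 tested, 0 higher and 0 lower and a median of -0.03. Those of metabolism and stress had 10 of 11 tested, with Fuca1 lower and a median of 0.08. In that last group Sesn1, a relative of Sesn2, averaged 24.3 ± 5.46 RPM in GSCLC lines and 19.5 ± 3.50 RPM in GSC lines (log2 difference 0.29), and Gdf15, a secreted stress cytokine, was too low to test, at 0 to 1.25 RPM in GSCLC libraries and 0 to 1.48 RPM in GSC libraries.

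In the BCL2 family, on which NOXA, PUMA and Bax act or to which they belong, 9 of 12 genes were tested, with 1 higher and 0 lower and a median log2 difference of -0.23. The higher one was Bok, a relative of Bax, with line means of 40.8 RPM in GSCLC_2, 36.5 RPM in GSCLC_3, 34.4 RPM in GSCLC_1 and 33.0 RPM in GSCLC_4, against 21.2 RPM in GSC_1 and 15.8 RPM in GSC_2. Its log2 difference was 0.94 ± 0.19 (SE, limma adjusted p = 0.0237), and single libraries overlapped, at 24.0 to 48.9 RPM in GSCLC lines and 14.5 to 25.4 RPM in GSC lines. The Bok call ended without GSC_1 replicate 1 (limma adjusted p = 0.0768), without GSCLC_3 replicate 1 (0.107), and without the line GSC_1, GSC_2, GSCLC_1 or GSCLC_2 (0.0574 to 0.333). Of the anti-apoptotic members, Mcl1, the chief partner of NOXA, averaged 127.9 ± 7.001 RPM in GSCLC lines and 156.6 ± 0.11 RPM in GSC lines, a log2 difference of -0.30 that did not pass (SE 0.12, limma adjusted p = 0.225). Bcl2l1 averaged 43.2 ± 5.36 RPM in GSCLC lines and 44.6 ± 7.33 RPM in GSC lines. Bcl2 and Bak1 were too low to test, at no more than 2.51 and 1.70 RPM in GSCLC libraries and 1.23 and 0.51 RPM in GSC libraries.

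Pmaip1, Bbc3 and Sesn2 are also targets of the ATF4 stress response, which can raise them without p53. Of 10 other genes of that response 8 were tested, with 0 higher and 0 lower and a median log2 difference of 0.19. The differences of 5 of the 8 lay above 0, at 0.68 for Phgdh, 0.43 for Asns, 0.36 for Trib3, 0.20 for Ppp1r15a and 0.19 for Psat1. Phgdh, the first enzyme of serine synthesis, had no overlap of its libraries, at 324.6 to 624.0 RPM in GSCLC lines and 268.1 to 309.0 RPM in GSC lines, and narrowly missed the threshold (limma adjusted p = 0.0524). The other 3, Atf4, Ddit3 and Chac1, lay below 0, Chac1 at -0.76. Atf4 itself averaged 15.95 ± 1.60 RPM in GSCLC lines and 18.7 ± 2.06 RPM in GSC lines, a log2 difference of -0.22. Ddit3, which encodes the stress factor CHOP, averaged 7.14 ± 2.19 RPM in GSCLC lines and 13.3 ± 5.87 RPM in GSC lines, a log2 difference of -0.82 ± 0.35 that did not pass (SE, limma adjusted p = 0.256).

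**Figure D5:**
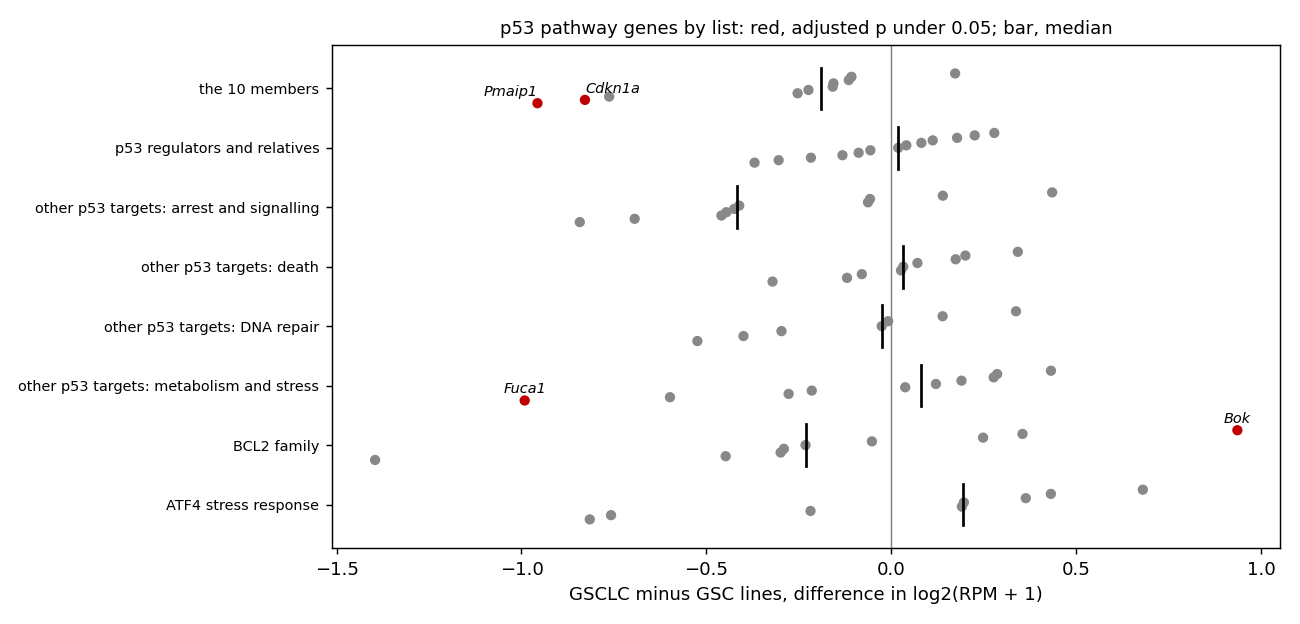
Difference in log2(RPM + 1), GSCLC minus GSC lines, for the tested genes of each pathway list (points) with the list's median (bar). Red points have a limma adjusted p under 0.05 and are Pmaip1, Cdkn1a and Fuca1, below 0, and Bok, above 0.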

How the data were processed

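The authors deposited 1 table of RPM for 26219 genes in 12 libraries, scaled to one common total per library. The submitters' processing notes name cutadapt 1.3, TopHat 1.4.1, Cufflinks 2.2.0 and the build mm10 (GRCm38). Not given in the sources used here are the tools' roles and whether strand was used, so antisense reads may be included. Low RPM values lie on even steps, of which 99.7% to 99.8% were whole within 0.1, but the table also holds fractional estimates, so no count test was applied and the steps serve only to describe precision. Replicates of every line lay further apart than counting noise, so they were kept as separate libraries. They were averaged only into the line means used to compare GSCLC with GSC lines and the 2 conditions.

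Values were taken as log2(RPM + 1), on which every difference is given and which understates the change of low genes. Genes reaching 5 RPM in 2 or more libraries were fitted with limma 3.58.1 in R 4.3.3 on line means, with a mean-variance trend. P-values measure the spread between lines, or between culture replicates for the test among GSCLC lines. The script was checked on simulated data. The 10 members and the lists were chosen with earlier results of these data known. Named from the lists were genes past the threshold and 12 fixed ones. For likeness, the 5 genes with the highest r were named, except 1 for Cdkn1a that is not reported here. Pidd1 and Tigar were matched through RefSeq synonyms. Alternatives covered the pseudocount, the filter, rescaling, the trend, the replicates and each library or line left out.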

Additional observations from a re-analysis of the deposited data

Results flagged for a closer look

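In 5 of 40 groups of 4 to 8 libraries, 1 library stood apart from the rest by Dixon's criterion, which chance meets in about 1 in 20 groups. Trp53 in GSCLC_4 replicate 1, at 1.00 RPM, stood apart from the other 7 GSCLC libraries, at 59.7 to 104.3 RPM, and, at the same 1.00 RPM, from the other 3 condition 1 libraries, at 59.7 to 96.7 RPM. Trp53 in GSC_2 replicate 2, at 41.6 RPM, stood apart from the other 3 GSC libraries, at 67.4 to 73.7 RPM. Ccng1 in GSCLC_3 replicate 1, at 170.2 RPM, stood apart from the other 3 condition 2 libraries, at 133.6 to 136.4 RPM. Bbc3 in GSCLC_2 replicate 2, at 1.57 RPM, stood apart from the other 3 condition 2 libraries, at 4.58 to 5.52 RPM. The causes were not tested.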

How the results depend on the processing

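The calls of Cdkn1a and Pmaip1 depend on the processing, while their differences stayed below 0 in all 29 alternatives (-1.15 to -0.50 and -1.19 to -0.72). Of the 2 members called, 1 was left with a pseudocount of 0.5, and 0 without a filter, with a filter of 10 RPM in 4 libraries, with quantile or median-ratio rescaling, without the trend, and with replicate 1 or replicate 2 libraries alone. Leaving out a library or line gave 0 to 2. All genes called, 356, became 142 without a filter, 645 with the line as a correlated block, 114 and 178 with replicate 1 or 2 alone, and 13 to 533 with a library or line left out. The 2 other pathway genes called became 1 without a filter or with either replicate alone, 4 with the correlated block, and 0 to 4 in leave-outs. Among the GSCLC lines, members called became 0 and all genes called 458 without a filter, 0 and 461 without the trend, and 0 to 3 and 710 to 1162 in leave-outs. Between conditions every alternative gave 0 members. The Trp53 difference reversed to 0.51 with replicate 2 alone (-0.87 to 0.50 in leave-outs), and that of Sesn2 to -0.12. Leave-outs gave -0.302 to 0.0720 for Mdm2, -0.232 to 0.0166 for Trp53inp1 and -0.351 to 0.0382 for Phlda3. Between conditions Bax reversed to 0.0345 and 0.0485 and Sesn2 to 0.0126 and 0.00550 under quantile and median-ratio rescaling, and leave-outs ranged over -0.19 to 0.14 for Bax, -0.46 to 0.21 for Bbc3 and -0.24 to 0.10 for Sesn2. The Fuca1 call ended with replicate 1 alone (limma adjusted p = 0.173), and the Bok call without a filter (0.0595) and with replicate 2 alone (0.259). Causes of these shifts were not tested.

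Replicate numbers did not pair the samples, since deviations of same-numbered libraries correlated at -0.12 to 0.11 over 15 pairs of lines. With the replicate block, members called were 2, all genes called 592, and other pathway genes called 4. Depth limits Trp63, Trp73, Gdf15, Bcl2 and Bak1, which lie near the level of 3 reads.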

Other observations

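Differences among the 4 GSCLC lines also passed limma's F-test in 4 of 36 other p53 targets (11.1%) and in 5 of 66 other pathway genes (7.58%), beside 9.14% of all tested genes. These 5 are named because they passed. The counts and the values of these 5 rest on all 12 libraries and are not given without GSCLC_4 replicate 1. Gtse1, which encodes a mitotic protein that restrains p53, averaged 73.1 RPM in GSCLC_2, 73.8 in GSCLC_3, 60.2 in GSCLC_1 and 32.5 in GSCLC_4 (limma adjusted p = 0.00414). Ier5, an immediate-early gene, averaged 13.6 RPM in GSCLC_2, 27.4 in GSCLC_3, 42.0 in GSCLC_1 and 15.02 in GSCLC_4 (limma adjusted p = 0.00292). Tigar, a phosphatase that lowers glycolysis and is listed as 9630033F20Rik, averaged 105.8 RPM in GSCLC_2, 58.9 in GSCLC_3, 52.6 in GSCLC_1 and 110.2 in GSCLC_4 (limma adjusted p = 0.00104). Eda2r, a receptor gene listed here among the death targets, was lowest in GSCLC_4, at 4.86 RPM (limma adjusted p = 0.0411). Phgdh, an ATF4 target, was highest in GSCLC_3, at 599.5 RPM (limma adjusted p = 0.00862). The low and high lines thus differed between these genes.

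Bik, a BH3-only gene of the BCL2 family, had the widest difference of the 66 genes without passing the test and was named for that. Its libraries did not overlap, at 1.08 to 7.26 RPM in GSCLC lines and 10.3 to 12.1 RPM in GSC lines (log2 difference -1.40 ± 0.39, SE, limma adjusted p = 0.0815).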
